A study of Mus musculus with 4 samples.

Results

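The genes for the protein subunits of oxidative phosphorylation were examined in the muscularis of the small intestine of mice in which Dicer had been deleted from smooth muscle cells. They were found by name among the array's probe sets that carry a single gene symbol, with every symbol starting with Nduf, Uqcr or Atp5, with Cox followed by 4 to 8, or with Sdh followed by a, b, c or d. This gave 79 of the 20461 genes and 150 of the 45101 probe sets. By these names 38 genes belong to complex I, 4 to complex II, 6 to complex III, 17 to complex IV and 14 to complex V. The smDicer KO mice (smDicer-/-;Cre-GFP/+) carried a Cre and GFP transgene driven by the smooth muscle myosin heavy chain (Myh11) promoter, which directs the deletion of Dicer to smooth muscle cells. Their Dicer genotype is listed both as lox/lox and as lox over a deleted allele, so that 1 allele may also have been missing from the other cells of the tissue. The WT controls are labelled wild type, and the study's tissue methods give WT mice that carried the same Cre and GFP transgene, without naming those of the arrays. All mice were about 3 weeks old, the tissue was jejunal muscularis stripped of mucosa and submucous plexus, and each of the 4 mice (2 smDicer KO, 2 WT) gave 1 Affymetrix GeneChip Mouse Genome array. The extended methods name female smDicer KO mice and give no sex for the controls.

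Oxidative phosphorylation is the last stage of respiration in the inner membrane of the mitochondrion. Complex I (NADH dehydrogenase) and complex II (succinate dehydrogenase) pass electrons to ubiquinone, complex III passes them on to cytochrome c, and complex IV (cytochrome c oxidase) hands them to oxygen. Complexes I, III and IV pump protons, and complex V (ATP synthase) uses the proton gradient to make ATP, on which contracting muscle depends. The genes examined here lie in the nucleus, and the subunits encoded by the mitochondrial genome carry no symbol in the array annotation and were not analysed here.

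Values are log2 signals from RMA, a log2 fold change is smDicer KO minus WT, and where a gene had several probe sets, the one of highest average signal stands for it. A mean log2 value under 6 lies near background. For Atp5g1, Cox5b, Ndufb4 and Ndufc2 the probe set that stands for the gene lies under 6, while stronger probe sets carry several gene symbols and are outside the name rule. Pearson's r across probe sets was 0.973 between the smDicer KO arrays and 0.992 between the WT arrays. Dicer1 gave 7.52 and 7.36 on the smDicer KO arrays and 7.82 and 8.08 on the WT arrays, so transcripts of the targeted gene were still read in the knockout tissue. Where its probes lie relative to the deleted exon was not examined, so these values are no check of the labels. Markers of other cells differed between the groups. All 18 measured markers of mucosal epithelium had a log2 fold change above 0, with a median of 4.46, and the log2 of their summed signal was 14.521 and 16.500 on the smDicer KO arrays and 12.002 and 12.274 on the WT arrays. Their per-array medians, relative to the WT mean, were 2.98 and 5.75 in smDicer KO and -0.63 and 0.63 in WT. Pancreatic acinar markers (5 genes) were high on 1 array of each group, with medians of -1.96 and 5.33 in smDicer KO and -1.69 and 1.69 in WT. The 11 smooth muscle markers all had log2 fold changes below 0 (median -0.43). Of them, 4 had an unadjusted p under 0.05, beside 10.5% of all genes lower at that p. The median of these markers was -0.69 with the mean of a gene's probe sets and -0.17 without smDicer KO replicate 2. In tissue of mixed cells, fewer cells of a type and less RNA per cell cannot be told apart, and the part of these other cells in the values below was not tested.

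The promoters of these genes often hold sites for the factors known to regulate mitochondrial genes, so windows around the transcription start are shown for the genes with the lowest and the highest fold change in complexes I, II and III among subunit genes that read above background and have a window. The windows come from RefSeq (GRCm38.p6), run from 250 bases before to 50 bases after a start, and were at hand for 63 of the 79 genes (68 windows). The genes without one include Atp5a1, Cox4i1, Cox6c, Ndufs1, Sdhc, Uqcrb, Uqcrc2 and Uqcrq. Both strands were searched for the NRF1 core CGCNTGCG, the ETS motif of GABPA CCGGAAGT, the YY1 motif AAGATGGC and the cAMP response element TGACGTCA, and no 2 different motifs overlapped in a window. The NRF1 core was in 25 of the 68 windows, or 36.8%, beside 8.21% of all 32851 RefSeq windows, and the YY1 motif in 11, or 16.2%, beside 2.75%. The ETS motif was in 4 windows (5.88%, beside 3.89% of all) and the cAMP response element in 4 (5.88%, beside 1.79%). Of the windows of complex I genes, 12 of 35 held the NRF1 core, as did 13 of the 33 windows of the other complexes. Printed are the 100 bases upstream of the start, 5′ to 3′ on the gene's strand, with matches in capitals. A match is a description of the letters and not evidence of a bound site.
Ndufb2 (chr6:39592465-39592564, plus strand): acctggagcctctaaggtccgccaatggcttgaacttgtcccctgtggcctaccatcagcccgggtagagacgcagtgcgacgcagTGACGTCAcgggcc
Ndufa6 (chr15:82354292-82354391, minus strand): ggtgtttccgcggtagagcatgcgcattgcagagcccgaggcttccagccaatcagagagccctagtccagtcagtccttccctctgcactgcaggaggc
Sdhd (chr9:50603850-50603949, minus strand): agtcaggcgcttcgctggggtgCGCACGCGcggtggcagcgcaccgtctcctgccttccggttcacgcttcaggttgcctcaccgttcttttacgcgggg
Sdha (chr13:74350241-74350340, minus strand): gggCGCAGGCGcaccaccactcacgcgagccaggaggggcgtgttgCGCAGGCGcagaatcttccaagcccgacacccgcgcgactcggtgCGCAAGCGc
Uqcrh (chr4:116075071-116075170, minus strand): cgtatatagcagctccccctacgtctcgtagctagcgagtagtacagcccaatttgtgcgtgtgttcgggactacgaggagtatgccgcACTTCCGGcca
Uqcrc1 (chr9:108936548-108936647, plus strand): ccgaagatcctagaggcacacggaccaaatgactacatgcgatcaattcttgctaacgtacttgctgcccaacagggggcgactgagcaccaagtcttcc

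The cAMP response element stands close to the start of Ndufb2, the subunit gene with the lowest fold change among genes read above background. The other windows that held it were those of Ndufa11 (-0.79), Uqcrfs1 (-0.32) and Ndufa10 (-0.18). Sdha, the gene of complex II with the highest fold change, had 3 NRF1 cores in the shown stretch and Sdhd 1. Ndufa6 and Uqcrc1 held an NRF1 core in the rest of their windows only. The genes at both ends of complexes IV and V that have a window (Cox8b, Cox7a1, Atp5e and Atp5f1) held no match in these 100 bases.

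At the median, the subunit genes were lower in the smDicer KO muscularis in each of the 5 complexes, though single genes such as Sdha and Cox5a were not. For complex II this rested on smDicer KO array 1, since its medians relative to the WT mean were -0.58 on that array and 0.016 on array 2. Of the 79 genes, 73 had a log2 fold change below 0 (55.6% of all genes did) and 6 above 0, with a median of -0.40, which is 24.1% lower in smDicer KO. By limma, 43 of the 79 were lower in smDicer KO at an unadjusted p under 0.05 and 0 were higher, beside 10.5% lower and 7.20% higher among all genes. Both smDicer KO arrays lay below both WT arrays in 61 of the 79 genes and above them in 2, beside 30.2% and 21.5% of all genes. After adjustment over the whole array none of them passed 0.05 (smallest limma adjusted p = 0.215), nor did any of the 20461 genes. The lowest unadjusted p was 0.000444, for Ndufb2. With 2 arrays a group, the smallest two-sided p of an exact permutation test is 0.333.

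Most of these genes are strongly expressed, and strongly expressed genes as a whole had a median below 0, which cyclic loess scaling turned to 0.023. Of the 1249 genes whose log2 values averaged 10 or more over the arrays, 18.2% were lower at an unadjusted p under 0.05, 42.5% were lower without overlap and 62.0% had a fold change below 0, with a median of -0.11. Of the 11245 genes that averaged 6 or more in a group, 16.0% were lower at that p, 36.8% were lower without overlap and 56.7% were below 0. The same limit of 6 was passed by 72 members, of which 69 were below 0, 42 were lower at the unadjusted p and 59 were lower without overlap. The count of 43 depends on single arrays and on the scaling. Leaving out WT replicate 1 gave 22 and leaving out WT replicate 2 gave 15, beside 3.63% and 3.54% of all genes in the same fits, and cyclic loess scaling gave 25, beside 7.79%. After loess, which moved the median of the strongly expressed genes by 0.13, the members' median was -0.28.

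**Figure D1:**
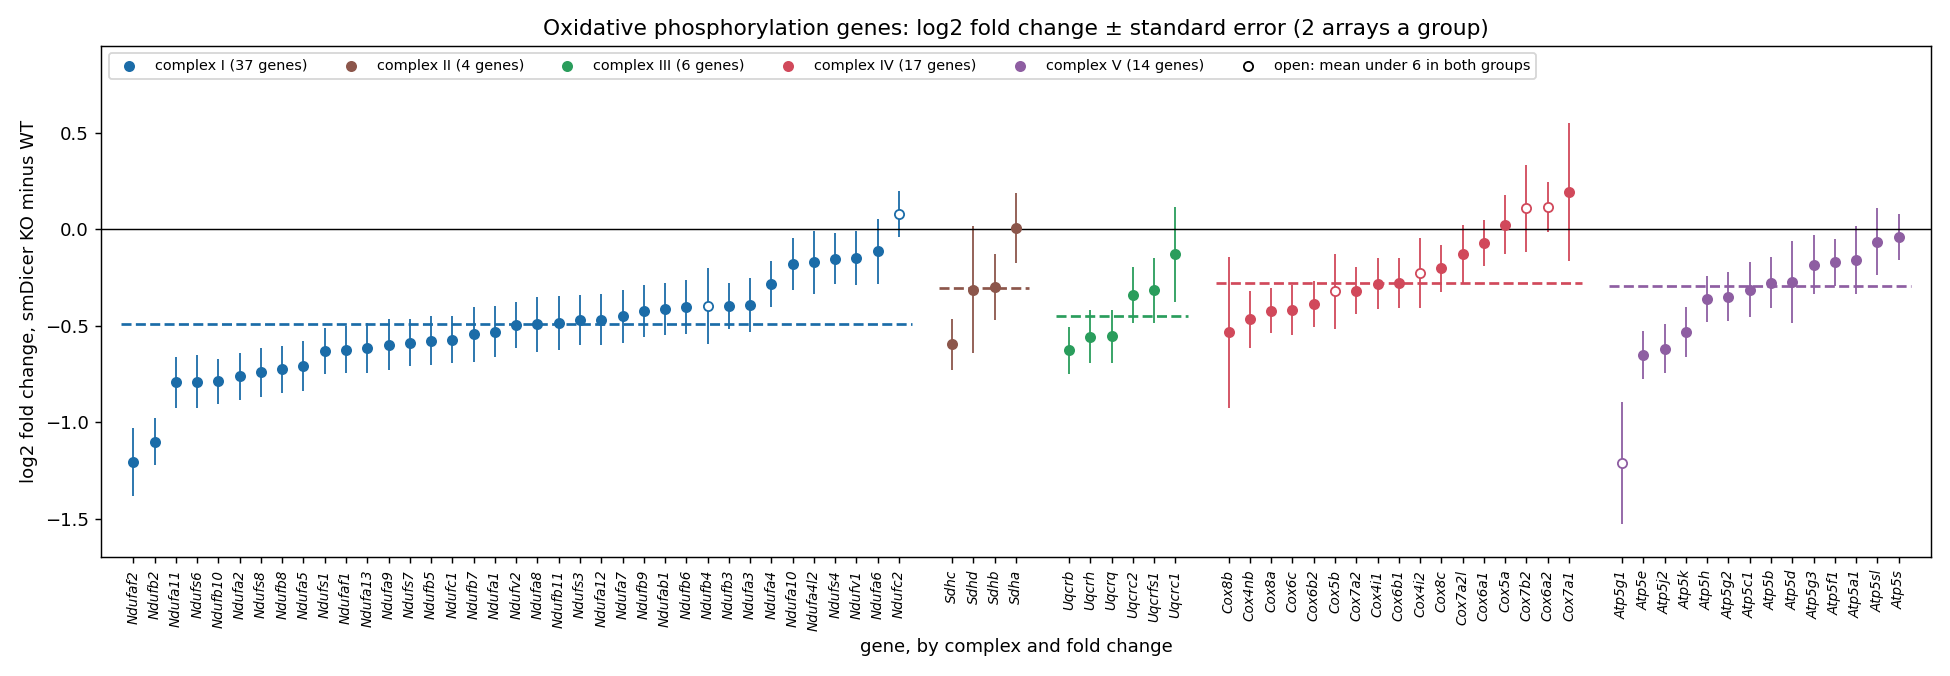
Log2 fold change (smDicer KO minus WT) of 78 of the 79 genes with its standard error, ordered by complex and fold change. Open points average under 6 in both groups and dashed lines are the median over all members of each complex, from -0.49 for complex I to -0.28 for complex IV.

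On single arrays, the median of the 79 genes relative to the WT mean was -0.46 and -0.35 in smDicer KO and -0.01 and 0.01 in WT. The shift was thus larger on the smDicer KO array 1, which had the lower epithelial marker signal, while the smooth muscle markers stood further below WT on smDicer KO array 2 (-0.17 and -0.53 in smDicer KO, 0.01 and -0.01 in WT). For the 66 subunit genes read above background, 63 were below 0, and both smDicer KO arrays lay below both WT arrays in 55.

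**Figure D2:**
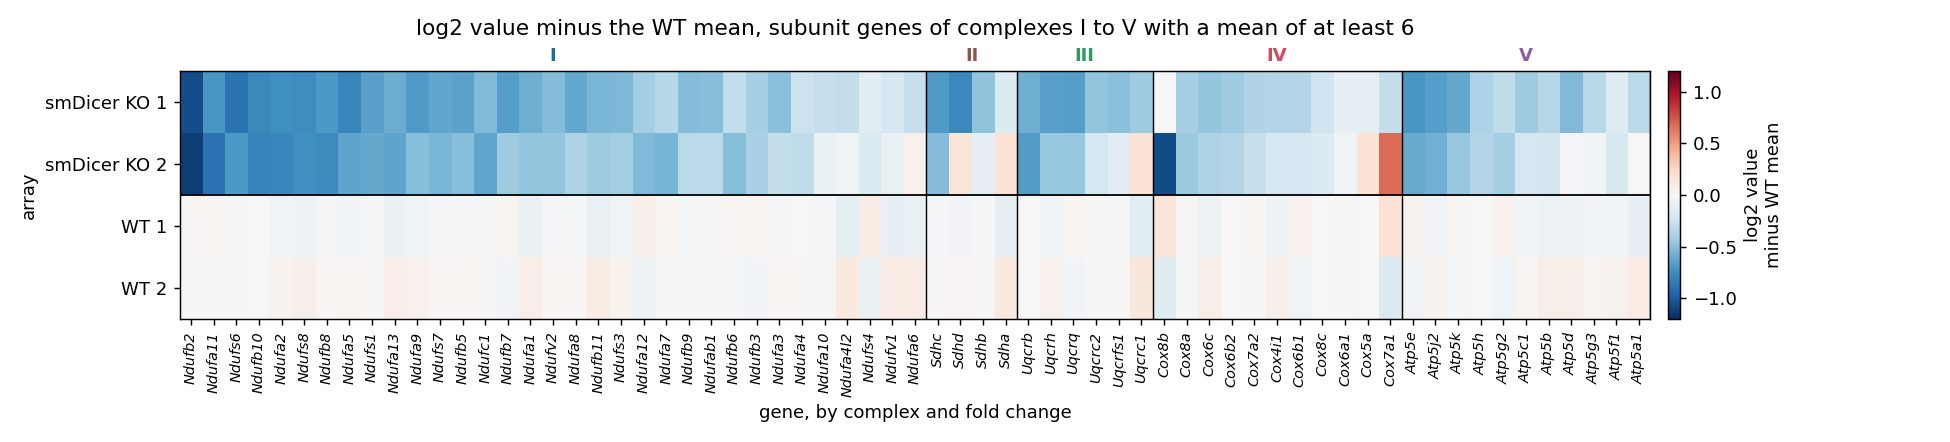
Each column is 1 of 65 of the 66 subunit genes that average 6 or more in a group, each row 1 array, and the colour is the log2 value minus the WT mean (blue lower, red higher). The 33 complex I genes drawn were all below 0 as group differences, while complex IV held both the lowest value of smDicer KO array 2 outside complex I (Cox8b) and its highest (Cox7a1).

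Among the members, complex I had the most negative median of the 5 complexes over all 4 arrays, and without smDicer KO replicate 2 complex II did (-0.58, against -0.56 for complex I). Probe sets with several symbols, outside the name rule, had medians of -0.37 for complex I (8) and -0.46 for complex V (5). All 34 complex I subunit genes read above background had a fold change below 0, with a median of -0.49 (29.0% lower). Of these, 27 had an unadjusted p under 0.05 and 31 did not overlap between groups. By name the 34 include Ndufa4, since assigned to complex IV, and its relative Ndufa4l2, neither with an unadjusted p under 0.05. On the arrays the median of the 34 relative to the WT mean was -0.54 and -0.49 in smDicer KO and -0.02 and 0.02 in WT. Over all 38 members of complex I the count at the unadjusted p was 29. Loess gave 19 in its place, and the fits without WT replicate 1 and without WT replicate 2 gave 18 and 12.

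The catalytic core of complex I includes the subunits that bind the flavin and the iron-sulfur clusters that lead electrons to ubiquinone. Ndufs1, the largest iron-sulfur subunit of the NADH-oxidising module, had log2 values of 9.89 and 9.93 in smDicer KO and 10.53 and 10.56 in WT, a log2 fold change of -0.63 (SE 0.12, limma adjusted p = 0.229). Both smDicer KO values were below both WT values. The gene belongs to the smooth muscle gene list that the study chose on these same samples, so its direction is not independent evidence.
Ndufv1, the subunit that holds the flavin and oxidises NADH, was read at 10.67 and 10.78 in smDicer KO and 10.78 and 10.97 in WT, where the groups overlapped, with a log2 fold change of -0.15 (SE 0.14, limma adjusted p = 0.653). Its partner Ndufv2 gave 11.55 and 11.59 in smDicer KO and 12.05 and 12.09 in WT (-0.49, SE 0.12). The subunits that follow belong to the part of the core that passes electrons on to ubiquinone. Ndufs8 had 11.22 on both smDicer KO arrays and 11.90 and 12.03 on the WT arrays (-0.74, SE 0.13), the lowest fold change of the core. Ndufs7 had 10.51 and 10.59 in smDicer KO and 11.11 and 11.16 in WT (-0.59, SE 0.12). Ndufs3 had 10.89 and 11.02 in smDicer KO and 11.38 and 11.47 in WT (-0.47, SE 0.13). None of these 3 genes overlapped between groups.

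The accessory subunits surround this core and are needed for its assembly and stability. Of the 27 read above background, which by name include Ndufa4 and Ndufa4l2, all were below 0 (median -0.49) and 22 had an unadjusted p under 0.05. The genes named Ndufb encode accessory subunits of the membrane arm. All 9 Ndufb genes with a probe set of a single symbol above background had an unadjusted p under 0.05 and no overlap between groups, with log2 fold changes between -1.10 and -0.40 and a median of -0.55. Ndufb4 is not among them, and its strong probe sets, which carry several symbols, gave -0.13 (SE 0.12) and -0.02 (SE 0.12) with no unadjusted p under 0.05.
Ndufb2 had 10.33 and 10.26 in smDicer KO and 11.40 and 11.38 in WT, 53.4% lower (log2 fold change -1.10, SE 0.12, limma adjusted p = 0.215). The gap between groups was far wider than the spread between arrays of a group. Its other strong probe set gave -1.18 (SE 0.13), and its remaining, much weaker probe sets gave -0.17 and 0.06. Ndufb10 had 10.11 and 10.09 in smDicer KO and 10.89 and 10.88 in WT (-0.79, SE 0.12), and Ndufb8, whose protein is often blotted as a sign of assembled complex I, had 10.87 and 10.80 in smDicer KO and 11.54 and 11.58 in WT (-0.73, SE 0.12).
The Ndufa genes lay somewhat closer to 0. Of 15 read above background, again with Ndufa4 and Ndufa4l2, 11 had an unadjusted p under 0.05, with fold changes between -0.79 and -0.12. Ndufa11, a membrane-arm subunit, had 10.71 and 10.52 in smDicer KO and 11.44 and 11.38 in WT (-0.79, SE 0.13), against 10.76 and 11.08 in smDicer KO and 10.95 and 11.12 in WT for Ndufa6, a small accessory subunit of the peripheral arm (-0.12, SE 0.17). The groups of Ndufa6 overlapped and those of Ndufa11 did not. Ndufab1, the mitochondrial acyl carrier protein that also serves fatty acid synthesis in the organelle, had a fold change of -0.41 (SE 0.14). Of the accessory Ndufs genes, Ndufs6 had 10.04 and 10.24 in smDicer KO and 10.91 and 10.94 in WT (-0.79, SE 0.14), while Ndufs4 had 9.87 and 9.82 in smDicer KO and 10.09 and 9.91 in WT (-0.15, SE 0.13).

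The name rule also brought in 2 assembly factors of complex I, proteins that help build the complex and are not part of it. Ndufaf2 had 6.87 and 6.49 in smDicer KO and 7.82 and 7.95 in WT, 56.7% lower (log2 fold change -1.21, SE 0.18, limma adjusted p = 0.215). This was the lowest fold change of any member read above background. Ndufaf1 had 7.76 and 7.67 in smDicer KO and 8.35 and 8.33 in WT (-0.62, SE 0.12).

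Complex II has 4 subunits and links the citric acid cycle to the respiratory chain. Their values were uneven. Sdha, the flavoprotein that oxidises succinate, had 10.52 and 10.86 in smDicer KO and 10.57 and 10.80 in WT, a log2 fold change of 0.01 (SE 0.18, limma adjusted p = 0.993), with groups that overlapped fully. Its other probe set had 10.25 and 10.75 in smDicer KO and 10.20 and 10.24 in WT (0.28, SE 0.21), both smDicer KO values lying above WT. Sdhb, the iron-sulfur subunit, had 11.18 and 11.55 in smDicer KO and 11.65 and 11.68 in WT (-0.30, SE 0.17).
The membrane anchors gave different values. Sdhc had 9.79 and 9.95 in smDicer KO and 10.45 and 10.49 in WT (-0.60, SE 0.13), and was the only gene of this complex with an unadjusted p under 0.05. Sdhd had 10.01 and 10.93 in smDicer KO and 10.74 and 10.81 in WT (-0.31, SE 0.33), so that smDicer KO array 1 alone was below WT. The median of complex II was -0.31, and without smDicer KO replicate 1 it was 0.016. The count of 1 gene became 3 without smDicer KO replicate 2 and 0 without WT replicate 2.

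In complex III, which hands electrons from ubiquinol to cytochrome c, all 6 genes had fold changes below 0 (median -0.45) and 3 had an unadjusted p under 0.05. The 3 that did encode small subunits. Uqcrb had 10.09 and 10.003 in smDicer KO and 10.68 and 10.67 in WT (-0.63, SE 0.12, limma adjusted p = 0.229). A stronger probe set of Uqcrb, which carries several symbols, had 13.52 and 13.64 in smDicer KO and 13.84 and 13.75 in WT. Its difference was smaller (-0.22, SE 0.13, limma unadjusted p = 0.156). Uqcrh, the hinge protein that contacts cytochrome c1, had 11.75 and 11.95 in smDicer KO and 12.36 and 12.46 in WT (-0.56, SE 0.14). Uqcrq had 10.93 and 11.13 in smDicer KO and 11.62 and 11.55 in WT (-0.55, SE 0.14). In none of these genes did the groups overlap.
Of the others, Uqcrfs1, the Rieske iron-sulfur protein, had 10.69 and 11.06 in smDicer KO and 11.18 and 11.21 in WT (-0.32, SE 0.17). Uqcrc2 had 11.10 and 11.35 in smDicer KO and 11.58 and 11.56 in WT (-0.34, SE 0.15). Uqcrc1 had 10.80 and 11.39 in smDicer KO and 11.09 and 11.36 in WT (-0.13, SE 0.25), where the groups overlapped. The smDicer KO arrays lay further apart in Uqcrc1 than the group means did. Cyc1, the cytochrome c1 of this complex, is not caught by the name rule and had 11.29 and 11.59 in smDicer KO and 11.74 and 11.85 in WT (-0.36, SE 0.16). The count of 3 genes became 5 without smDicer KO replicate 2 and 1 after loess or without either WT array.

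The median of complex IV was -0.28, close to that of complex V. Of its 17 members, 13 were below 0, 4 had an unadjusted p under 0.05 and both smDicer KO arrays were below WT in 9. Without either WT array the count of 4 became 0, and after loess 1. The genes of subunits found in all tissues were among the strongest signals on the arrays. Cox6a1 had 13.60 and 13.64 in smDicer KO and 13.71 and 13.67 in WT (-0.07, SE 0.12), and Cox5a, whose protein binds to Cox4 in the holoenzyme, had 12.44 and 12.72 in smDicer KO and 12.55 and 12.56 in WT (0.02, SE 0.15). Both differences were within their standard errors, and the other probe sets of Cox5a gave -0.12 and -0.08.
Lower values were found for Cox6c, with 12.32 and 12.41 in smDicer KO and 12.72 and 12.85 in WT (-0.42, SE 0.13), and for Cox8a, with 11.54 and 11.50 in smDicer KO and 11.95 and 11.93 in WT (-0.42, SE 0.12, limma adjusted p = 0.256). Cox4i1, which carries a main site of regulation of the enzyme by ATP, had 12.52 and 12.66 in smDicer KO and 12.81 and 12.93 in WT (-0.28, SE 0.13). For these 3 genes the groups did not overlap.

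Several complex IV subunits exist as a widespread form and as a form restricted to certain tissues, of which Cox6a2, Cox7a1 and Cox8b are known from heart and skeletal muscle, Cox6b2 and Cox8c from testis and Cox4i2 from lung. Levels of different probe sets are not comparable, so only the groups are compared within a gene. Cox7a1 had 7.29 and 8.25 in smDicer KO and 7.75 and 7.41 in WT (log2 fold change 0.19, SE 0.36), and Cox8b had 7.53 and 6.46 in smDicer KO and 7.67 and 7.39 in WT (-0.54, SE 0.39). These muscle forms went opposite ways on smDicer KO array 2, with Cox7a1 above and Cox8b below every other array. Their widespread partners were steadier. Cox7a2 had 13.08 and 13.16 in smDicer KO and 13.46 and 13.42 in WT (-0.32, SE 0.12), and the values of Cox8a are given above. Cox6a2 read under 6 on all arrays, with 5.83 and 5.68 in smDicer KO and 5.63 and 5.66 in WT.
Cox6b1 had 12.21 and 12.35 in smDicer KO and 12.61 and 12.51 in WT (-0.28, SE 0.13), and Cox6b2 had 7.88 and 7.96 in smDicer KO and 8.31 and 8.30 in WT (-0.39, SE 0.12). Both were lower without overlap. Cox8c had 6.99 and 7.07 in smDicer KO and 7.24 and 7.23 in WT (-0.20, SE 0.12), and its second probe set gave 0.20. Cox4i2 read near background, with 5.27 and 5.63 in smDicer KO and 5.58 and 5.77 in WT. Ndufa4, named for complex I and since assigned to complex IV, had 12.25 and 12.20 in smDicer KO and 12.50 and 12.52 in WT (-0.28, SE 0.12), and its relative Ndufa4l2, known as a gene induced by low oxygen, had 6.12 and 6.37 in smDicer KO and 6.30 and 6.53 in WT (-0.17, SE 0.16). The groups of Ndufa4 did not overlap and those of Ndufa4l2 did. Skeletal muscle markers (10 genes) had a median fold change of -0.21, 2 of them reached a mean of 6, and the log2 of their summed signal was 10.04 and 9.27 in smDicer KO and 11.52 and 11.42 in WT. Those that reached 6 were Ckm (-2.33, SE 0.34) and Acta1 (-1.49, SE 0.54), both lower without overlap. The study counts Ckm among the reduced smooth muscle genes of these same samples and did not detect it in sorted smDicer KO smooth muscle cells. The source of the Ckm signal in the tissue was not tested. Of the 3 brown adipocyte markers (median -0.04) only Cidea was read above background, with 7.48 and 7.19 in smDicer KO and 8.02 and 8.68 in WT (-1.02, SE 0.27). The part of either tissue in the values of the muscle forms was not tested.

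**Figure D3:**
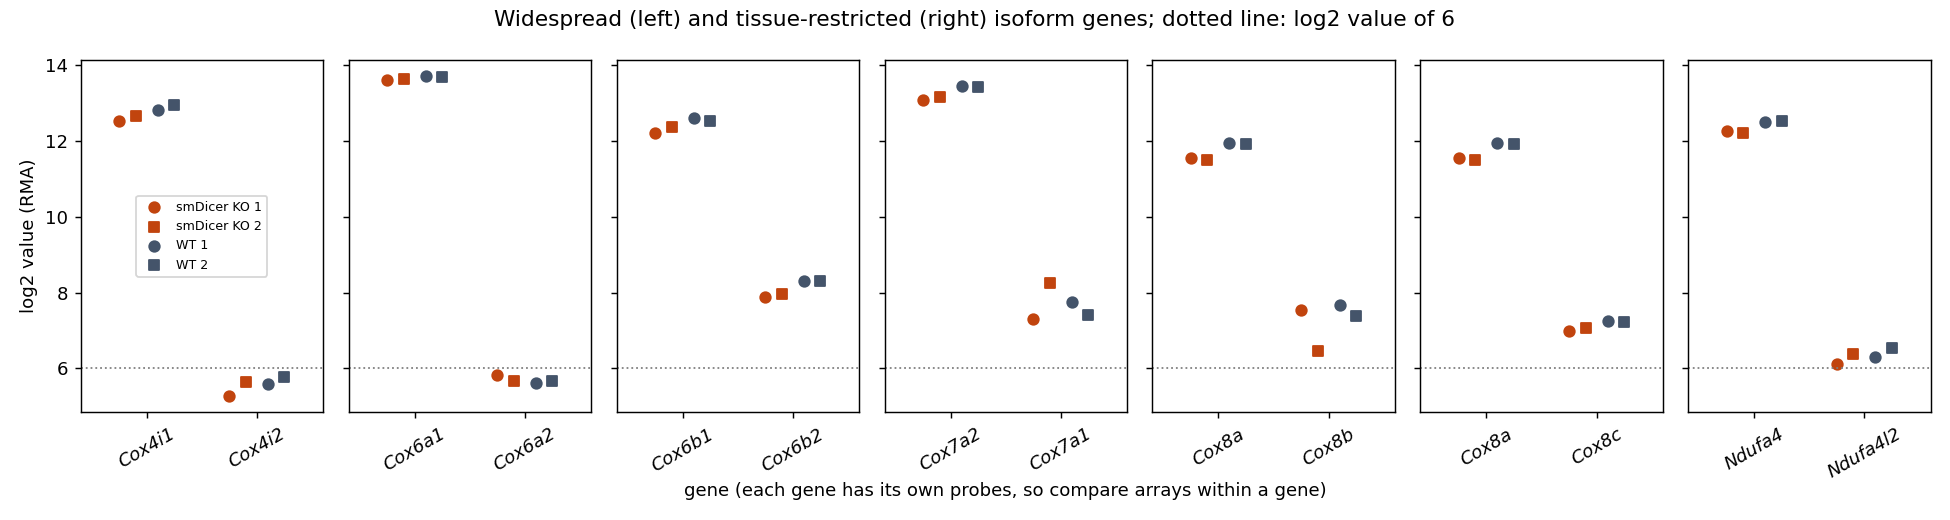
Log2 values of 7 pairs of isoform genes on each array, with the widespread gene on the left of each panel, the smDicer KO arrays left of the WT arrays and a dotted line at a log2 value of 6. Cox7a1 and Cox8b scatter between the smDicer KO arrays (7.29 and 8.25, and 7.53 and 6.46), while the widespread genes of the same panels vary little within a group.

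In complex V all 14 genes had fold changes below 0, with a median of -0.30, and 6 had an unadjusted p under 0.05. That count was 3 after loess, 4 without smDicer KO replicate 1 and 2 without either WT array. The catalytic head was near the median or above it. Atp5a1 and Atp5b encode the alpha and beta subunits that bind nucleotides. Atp5a1 had 11.90 and 12.23 in smDicer KO and 12.13 and 12.33 in WT (-0.16, SE 0.18), with overlap, and its weaker probe set gave -0.52. Atp5b had 12.55 and 12.67 in smDicer KO and 12.82 and 12.96 in WT (-0.28, SE 0.13).
The central stalk turns inside this head. Its gamma subunit gene Atp5c1 had 12.41 and 12.65 in smDicer KO and 12.81 and 12.88 in WT (-0.31, SE 0.14), the delta subunit gene Atp5d had 11.53 and 12.04 in smDicer KO and 11.99 and 12.13 in WT (-0.27, SE 0.21), and the epsilon subunit gene Atp5e had 10.89 and 10.98 in smDicer KO and 11.62 and 11.55 in WT (-0.65, SE 0.12, limma adjusted p = 0.229). Of these head and stalk genes only Atp5e had an unadjusted p under 0.05. Atp5c1 has a second probe set, near background, which gave 0.29.
Outside the head and central stalk, 4 of 6 genes read above background had an unadjusted p under 0.05 and none of the 6 overlapped between groups. Atp5j2 and Atp5k, small membrane subunits of the part of the enzyme in which pairs of ATP synthases join, had 11.76 and 11.84 in smDicer KO and 12.37 and 12.47 in WT (-0.62, SE 0.12) and 11.48 and 11.64 in smDicer KO and 12.10 and 12.08 in WT (-0.53, SE 0.13). The 3 genes for the c subunit of the rotor encode the same mature protein. Atp5g3 had a fold change of -0.18 (SE 0.15), Atp5g2 -0.35 (SE 0.13) and Atp5g1, by a probe set under 6, -1.21 (SE 0.32). That probe set had 4.61 and 3.73 in smDicer KO and 5.37 and 5.39 in WT. The strong probe set of Atp5g1, which carries several symbols, had 10.37 and 10.64 in smDicer KO and 11.06 and 10.91 in WT, a smaller difference (-0.48, SE 0.16).

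The other members that are not subunits gave smaller differences. Cox4nb, a neighbour of Cox4i1 now named Emc8 and part of a complex of the endoplasmic reticulum, had 8.20 and 7.94 in smDicer KO and 8.54 and 8.53 in WT (-0.47, SE 0.15). Cox7a2l, which takes part in joining complexes III and IV, had a fold change of -0.13 (SE 0.15), Atp5s -0.04 (SE 0.12) and Atp5sl -0.06 (SE 0.17). With these and the 2 assembly factors left out, 40 of the 73 subunit genes were lower at the unadjusted p. The remaining members whose probe set of a single symbol read under 6 were Cox5b, Cox7b2, Ndufb4 and Ndufc2, with fold changes between -0.40 and 0.11. Strong probe sets with several symbols gave -0.11, -0.14, -0.28 and -0.23 for Cox5b and -0.21, -0.39 and -0.35 for Ndufc2, of which the last 2 had an unadjusted p under 0.05.

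Other genes of mitochondrial energy metabolism were compared by lists of known function, and in none of them was a gene higher at an unadjusted p under 0.05. In the citric acid cycle with pyruvate dehydrogenase, 3 of 15 genes were lower at that p and the median was -0.23, which became -0.10 after loess and -0.15 without smDicer KO replicate 1. These were Fh1 (fumarase), with 10.72 and 10.81 in smDicer KO and 11.41 on both WT arrays (-0.64, SE 0.12), Dld (-0.57, SE 0.15) and Dlat (-0.42, SE 0.13), whose proteins belong to the pyruvate dehydrogenase complex. The highest fold changes of the list were 0.25 (SE 0.30) for Ogdh, of the oxoglutarate dehydrogenase complex, and 0.06 (SE 0.15) for Mdh2, malate dehydrogenase. Citrate synthase (Cs), often used as a measure of mitochondrial content, had 11.08 and 11.61 in smDicer KO and 11.34 and 11.27 in WT (0.04, SE 0.22). Dlat and Cs were named after their values were seen.
Among 15 assembly factors, 2 of which are the members Ndufaf1 and Ndufaf2, 3 were lower at that p and the median was -0.13 (-0.021 after loess, -0.054 without WT replicate 1). The third was Uqcc, a factor for complex III (-0.69, SE 0.13). Sco2, a copper chaperone of complex IV, had 6.80 and 7.67 in smDicer KO and 6.76 and 6.74 in WT (0.49, SE 0.31), with smDicer KO array 2 apart from the rest, and Cox19 had a fold change of 0.13 (SE 0.23). Cytochrome c, mitochondrial carriers and related genes (11) had a median of -0.01 and 1 lower gene. This was Slc25a4, the ATP and ADP carrier of heart and muscle, with 12.76 and 12.25 in smDicer KO and 13.18 and 13.21 in WT (-0.69, SE 0.21). Its widespread relative Slc25a5 had 12.04 and 13.04 in smDicer KO and 12.21 and 12.11 in WT (0.37, SE 0.35). Ckmt1, the widespread mitochondrial creatine kinase, had 8.59 and 11.67 in smDicer KO and 7.68 and 7.60 in WT (2.49, SE 1.04), and was highest on the array with the most epithelial signal.

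The regulators of mitochondrial biogenesis (13 genes) had a median of -0.07 and 2 lower genes, Tfb2m, a factor for transcription of the mitochondrial genome, with 8.36 and 8.06 in smDicer KO and 8.81 and 8.93 in WT (-0.66, SE 0.16), and Gabpa, which encodes the factor that binds the ETS motif named above, with 8.73 and 8.43 in smDicer KO and 8.96 and 9.12 in WT (-0.47, SE 0.16). Ppargc1a, the coactivator PGC-1 alpha, had 7.16 and 7.21 in smDicer KO and 7.05 and 6.98 in WT (0.18, SE 0.12), and Nrf1, which encodes the factor of the NRF1 core, had 6.17 and 6.09 in smDicer KO and 5.98 and 6.31 in WT (-0.01, SE 0.16). Esrra, which encodes an oestrogen-related receptor of the same programme, had 7.09 and 8.20 in smDicer KO and 7.06 and 7.46 in WT (0.39, SE 0.41). Nrf1 was named after its values were seen.
Glycolysis (16 genes measured) had a median of -0.10, with Pfkl and Pfkm, subunits of phosphofructokinase, lower at the unadjusted p (-0.55 and -0.49). At the other end of that list were Eno3, the muscle enolase, with 11.60 and 10.21 in smDicer KO and 10.57 and 9.10 in WT (1.07, SE 0.69), and Ldha (0.28, SE 0.22). Fatty acid oxidation (10 genes) had a median of -0.12 with 0 genes at that p. Its fold changes ran between -0.35 (SE 0.27) for Acaa2, a thiolase, and 0.52 (SE 0.35) for Cpt2, which with Cpt1a (0.46, SE 0.22) brings fatty acids into the organelle. The second lowest was Acadvl (-0.27, SE 0.22). These medians stand beside -0.04 for all 20461 genes.

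**Figure D4:**
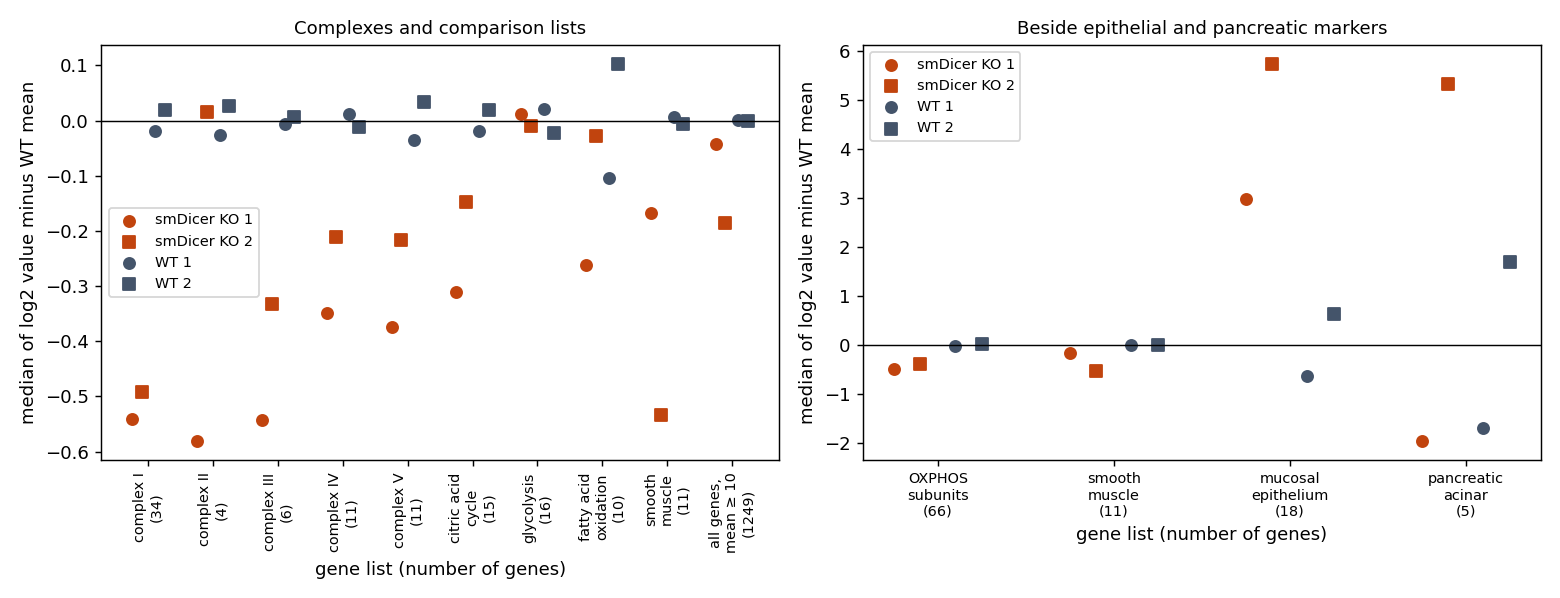
Per-array median over the genes of each list, as log2 difference from the WT mean (smDicer KO orange, WT grey), with the number of genes under each list. Complex I was at -0.54 and -0.49 on the smDicer KO arrays, complex II at -0.58 and 0.016, and glycolysis at 0.012 and -0.011, while the right panel shows epithelial markers at 2.98 and 5.75.

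The remaining cell type lists gave median fold changes of 0.63 for enteric neurons (12 genes, all above 0), 0.03 for glia, 0.32 for interstitial cells of Cajal, 0.41 for macrophages, -0.10 for fibroblasts, 0.16 for endothelium, 0.26 for mesothelium and 0.03 for adipocytes, and 1.52 for the pancreatic acinar list. The macrophage list was split, with 2 of its 8 genes lower without overlap and 6 higher, beside 30.2% and 21.5% of all genes. Fold changes of the glia list ran between -0.32 and 0.97. For enteric neurons 8 of the 12 genes were higher at an unadjusted p under 0.05. Of the 18 epithelial markers 14 were, beside 7.20% of all genes.

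Probe sets of the same gene mostly gave the same answer. In 36 genes with several probe sets at a mean of at least 6, 35 had a single sign, the exception being Cox5a, and the median spread between the fold changes of a gene's probe sets was 0.10. The largest spread was 1.01, in Ndufb2.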

How the data were processed

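The deposited values are log2 signals per probe set, which the authors obtained with RMA in Omicsoft Array Studio from Affymetrix GeneChip Mouse Genome arrays, 2 smDicer KO and 2 WT. RMA removes background, forces a common distribution on the arrays and summarises probes, so values are relative within an array. Gene symbols are those of the deposited annotation. The authors' fold change and p-value columns, also deposited, were not used. All 45101 probe sets were fitted in limma 3.58.1 (R 4.3.3, functions lmFit and eBayes, prior degrees of freedom 2.49), with p-values adjusted by Benjamini-Hochberg over all of them, after a check on simulated data. Tables were made with Python 3.11.15 and pandas 2.3.3. Genes were read from 36804 probe sets with 1 symbol. Counts per list use the unadjusted p because none passed the adjusted p, and lists were not tested as sets. The number of arrays limits the precision.

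Genes given with values on every array are the 3 lowest and 3 highest fold changes of each complex with a mean of at least 6 in a group, core subunits, isoform pairs and Ndufs1. Of these, Atp5s and Atp5sl are given by fold change only. Values of 1 member are not reported here. Others were chosen after their values were seen. From each of the other lists of energy metabolism, the 2 lowest and 2 highest fold changes with that mean are named. From the cell type lists only Ckm, Acta1 and Cidea are named. Members and lists were chosen with earlier results of these data known. Alternatives were an unmoderated model, robust eBayes with a trend, a filter that left 18345 probe sets with a log2 value of 6 on 2 arrays, median centring, cyclic loess, a block for the replicate number, fits without each array, the mean of a gene's probe sets, no _x_at or _s_at probe sets, and members that are not subunits left out.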

Additional observations from a re-analysis of the deposited data

How the results depend on the processing

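The count of 43 lower genes was between 37 and 45 under all alternatives except cyclic loess (25) and leaving out an array, where it ranged from 15 to 45, and 0 genes passed the adjusted p in any of them. Under loess the split of all genes at the unadjusted p was 1594 lower and 2027 higher, beside 2140 and 1473 without it. The count of higher members was 0, and 1 without smDicer KO replicate 1. After loess the medians were -0.28 for all members, -0.37 for complex I, -0.32 for complex III, -0.15 for complex IV and -0.16 for complex V, and 48 genes did not overlap in place of 61. Centring gave -0.54 for complex I. Complex III was -0.33 with the mean of a gene's probe sets and also without _x_at and _s_at probe sets. With an array left out, medians ranged from -0.46 to -0.35 for all members, -0.56 to -0.47 for complex I, -0.58 to 0.016 for complex II, -0.54 to -0.33 for complex III, -0.33 to -0.18 for complex IV and -0.36 to -0.21 for complex V. With the replicate number as a block (replicate block) 37 genes were lower. In the labels, samples of the same number shared only that number. The correlation of their deviations was 0.25, and with 2 arrays a group the other pairing is bound to give -0.25. Epithelial and pancreatic acinar marker medians were higher on replicate 2 than on replicate 1 in both groups.

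Of 45 genes, 14 changed sign under some alternative and 31 did not. Centring gave -0.018 for Cox5a, -0.035 for Sdha, -0.017 for glia and -0.016 for adipocyte markers. Loess gave 0.041 for Atp5s, 0.058 for Cox6a1, 0.014 for Ndufa6, 0.0009 for Uqcrc1, 0.044 for carriers, 0.013 each for regulators and glycolysis, 0.0055 for fatty acid oxidation and 0.029 for fibroblasts, and moved mesothelium to 0.39. The filter at log2 6 left 2 skeletal muscle markers (median -1.91) and 1 brown adipocyte marker (-1.02), and gave -0.28 for complexes IV and V alike. Without _x_at and _s_at probe sets the median was -0.62 for smooth muscle, -0.14 for regulators and -0.016 for glycolysis. The mean of probe sets gave -0.058 for Cox5a, -0.0011 for Cox6a2 and 0.0004 for Cox8c, and Atp5c1 was 0.29 without _x_at and _s_at probe sets. With an array left out, fold changes ranged from -0.33 to 0.0046 for Atp5a1, -0.22 to 0.091 for Atp5sl, -0.12 to 0.17 for Cox5a, -0.29 to 0.67 for Cox7a1, -1.07 to 0.0029 for Cox8b, -0.28 to 0.047 for Ndufa6, -0.16 to 0.18 for Sdha, -0.77 to 0.15 for Sdhd and -0.42 to 0.17 for Uqcrc1. List medians ranged from -0.31 to -0.15 for the citric acid cycle, -0.18 to -0.054 for assembly factors, -0.53 to -0.17 for smooth muscle, -0.14 to 0.069 for carriers, -0.083 to 0.012 for glycolysis, -0.067 to 0.29 for glia, -0.23 to 0.014 for fibroblasts, -0.058 to 0.33 for endothelium, -0.094 to 0.40 for adipocytes, -0.095 to 0.013 for brown adipocytes and -1.96 to 5.33 for pancreatic acinar markers. The causes were not tested.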

Other observations

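Probe sets that carry several gene symbols were left out by the name rule, and 24 of them match an oxidative phosphorylation gene (13 genes, 5 of which are not among the 79). Of these probe sets, 23 had a log2 fold change below 0, and the median was -0.31. By limma 10 were lower in smDicer KO at an unadjusted p under 0.05 and 0 higher. Of all genes, read from probe sets with 1 symbol, 55.6% were below 0 and 10.5% were lower at that p. Shares over all probe sets with several symbols were not computed. The matching probe sets of complex I (8) had a median of -0.37, those of complex IV (10) -0.21 and those of complex V (5) -0.46. Such probe sets may read more than 1 gene, so they are given as values only.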
